A study of Mus musculus with 24 samples.

Results

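Chemokine signalling was read in mouse kidney from bulk RNA-seq as the RNA of the ligands and receptors of this family. Members were the protein-coding genes whose symbol begins with Ccl, Cxcl, Ccr, Cxcr or Ackr followed by a digit, together with Cx3cl1 and Cx3cr1. The annotation lists 60 such genes, of which Ccl21c, Ccl27 and Ccl27b had no matched transcript and were not analysed here. The other 57, of 35460 genes with a matched transcript, comprised 35 ligands, 18 signalling receptors and 4 atypical receptors. Cxcl11, which the annotation calls a polymorphic pseudogene, was no member.

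In the first of 2 experiments, 6 libraries came from mice labelled ENPP1 knockout and 6 from wild-type mice, both on an adenine diet for 14 days, and 4 from a chow diet control. The labelled knockout was made with ENPP1 fl/fl alleles and the transgene CAG-ERCre, whose recombinase is driven by a broadly active promoter and was induced with tamoxifen, while wild-type mice lacked the transgene. The second experiment used the same 14-day adenine model, in which animals were injected into the peritoneum, in repeated doses each week at 50 mg/kg, with an hENPP1 monoclonal antibody (4 libraries) or control IgG (4 libraries). ENPP1 is a cell-surface enzyme that hydrolyses extracellular nucleotides, and dietary adenine forms crystals that injure the renal tubules. The genotype of the chow mice, whether wild-type mice had floxed alleles or tamoxifen, whether the injected mice carried human ENPP1, and sex, age and strain were not stated in the labels read here. Knockout status therefore cannot be told apart from the presence of the Cre transgene, and nothing states that libraries came from separate mice, so p-values measure the spread between these libraries.

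Chemokines are small secreted proteins that bind G-protein-coupled receptors on leukocytes and guide their movement along a gradient. In broad terms, ligands of Cxcr2 draw neutrophils, ligands of Ccr2 draw monocytes, and Ccl19 and Ccl21 draw cells bearing Ccr7 towards lymphatic vessels and lymph nodes. Cxcl12 and Cxcr4 retain cells in tissue niches, and the atypical receptors (Ackr) bind chemokines without G-protein signalling and so shape gradients. In injured kidney the family is known for marking inflamed tubules and infiltrating leukocytes.

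The knockout libraries held 21057859 to 28213689 reads assigned to genes and the antibody libraries 43886517 to 50566596. The 8 kidney markers (such as Lrp2 and Umod) were read in every group, with summed levels of 5899 to 8730 CPM (read counts relative to library size, scaled within each experiment) in labelled knockout libraries, 3639 to 5084 CPM in wild type and 9077 to 10630 CPM in chow. The RNA of Enpp1 did not check the label: it was 21.6 to 24.7 CPM in labelled knockout libraries and 20.9 to 24.9 CPM in wild type on adenine, so directions below are those of libraries labelled knockout. These reads cover all Enpp1 transcripts together, and whether they include the recombined segment was not tested. Correlations between libraries of a group were at least 0.995. They ran over all genes, those with 0 reads included, so they can miss a library that differs in some genes.

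Sequences upstream of 5 members are shown. The 3 neutrophil-attracting genes Cxcl1, Cxcl2 and Cxcl3, whose RNA was near 0 on chow, carry the same 10 bases there. Cxcl12, which fell, does not carry them. Neither do other members that rose, such as Ccl3, Ccl12 and Ccr2, in the 250 bases searched. Each is the stretch of 120 bases that ends just before the annotated start, from RefSeq on GRCm38.p6, with matches to the kappa-B consensus in capitals. Kappa-B sites are the DNA elements bound by NF-kB, a transcription factor family active in inflammation.
Cxcl1 (chr5:90891125-90891244, plus strand): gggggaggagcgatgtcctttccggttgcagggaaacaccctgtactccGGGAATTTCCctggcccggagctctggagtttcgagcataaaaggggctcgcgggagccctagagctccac
Cxcl2 (chr5:90903779-90903898, plus strand): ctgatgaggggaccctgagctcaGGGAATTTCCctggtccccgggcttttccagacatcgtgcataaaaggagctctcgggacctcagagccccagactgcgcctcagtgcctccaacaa
Cxcl3 (chr5:90785981-90786100, plus strand): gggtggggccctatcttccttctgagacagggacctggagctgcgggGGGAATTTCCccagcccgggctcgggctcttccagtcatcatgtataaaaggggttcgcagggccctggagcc
Cxcl10 (chr5:92348890-92349009, minus strand): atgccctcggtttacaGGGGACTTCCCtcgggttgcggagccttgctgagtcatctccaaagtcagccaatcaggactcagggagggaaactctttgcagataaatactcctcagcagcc
Cxcl12 (chr6:117168415-117168534, plus strand): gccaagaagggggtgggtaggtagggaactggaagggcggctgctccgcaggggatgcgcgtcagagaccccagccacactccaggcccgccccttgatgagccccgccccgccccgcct

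The kappa-B consensus, searched on both strands of the 250 bases before each start, was found upstream of 10 of the 43 members with a window (23.3%) and of 1533 of all 27025 genes with a window (5.67%). The exact site GGGAATTTCC was upstream of 4 members, Ccr3, Cxcl1, Cxcl2 and Cxcl3, and of 28 of the 27025 genes (0.104%). In Cxcl10 the capitals span a pair of overlapping matches. Ligands with a match were Ccl1, Ccl9, Ccl20, Cxcl1, Cxcl2, Cxcl3 and Cxcl10, and other members with a match were Ackr2, Ccr3 and Ccr6. Members with a window but no match included some that rose on adenine (Ccl3, Ccl6, Ccl8, Ccl12, Ccl22, Ccr1, Ccr2 and Cx3cr1). They also included some that fell (Ccl19, Ccl21a, Cxcl12 and Cxcl14). Ccl2, Ccl5, Ccl7, Cxcl5, Cxcl16 and Cxcl17 had no window, so their upstream bases were not searched. A match describes these letters only, and binding was not measured.

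The comparison of wild-type adenine with chow asked what the diet does to the family. Of the 44 members past the filter on low counts, 32 were higher on adenine and 7 lower at an edgeR adjusted p under 0.05, and 5 did not pass. That is 72.7% higher and 15.9% lower, against 44% higher and 40.9% lower among all genes tested. The median log2 change of the 44 members was 1.63, against 0.07 over all genes. No signalling receptor was called lower by edgeR (0 at an unadjusted p under 0.05, and 0 by DESeq2 among the 10 recomputed). By role, 23 of 30 ligands were higher and 5 lower, 9 of 11 signalling receptors were higher, and 2 of 3 atypical receptors were lower. In 29 of the 44 members every wild-type adenine library lay above every chow library, and in 6 every adenine library lay below. Over all genes tested, 37.8% lay fully above and 37.4% fully below.

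Summed over the family, ligand RNA averaged 547 ± 32 CPM in wild-type adenine kidneys (SD, n = 6) and 431 ± 28 CPM on chow (SD, n = 4). Signalling receptor RNA averaged 116 ± 7.0 CPM in wild-type adenine kidneys and 33.0 ± 2.6 CPM on chow. As a ratio the receptor total differed more than the ligand total. On the scale of TPM, which corrects for transcript length, Cxcl12 led on chow at 61.8 ± 11 (SD, n = 4), whereas in wild-type adenine kidneys Cxcl16 was at 101 ± 15 and Cxcl1 at 90.8 ± 20 (SD, n = 6), a pair whose order lies within their spread.

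**Figure D1:**
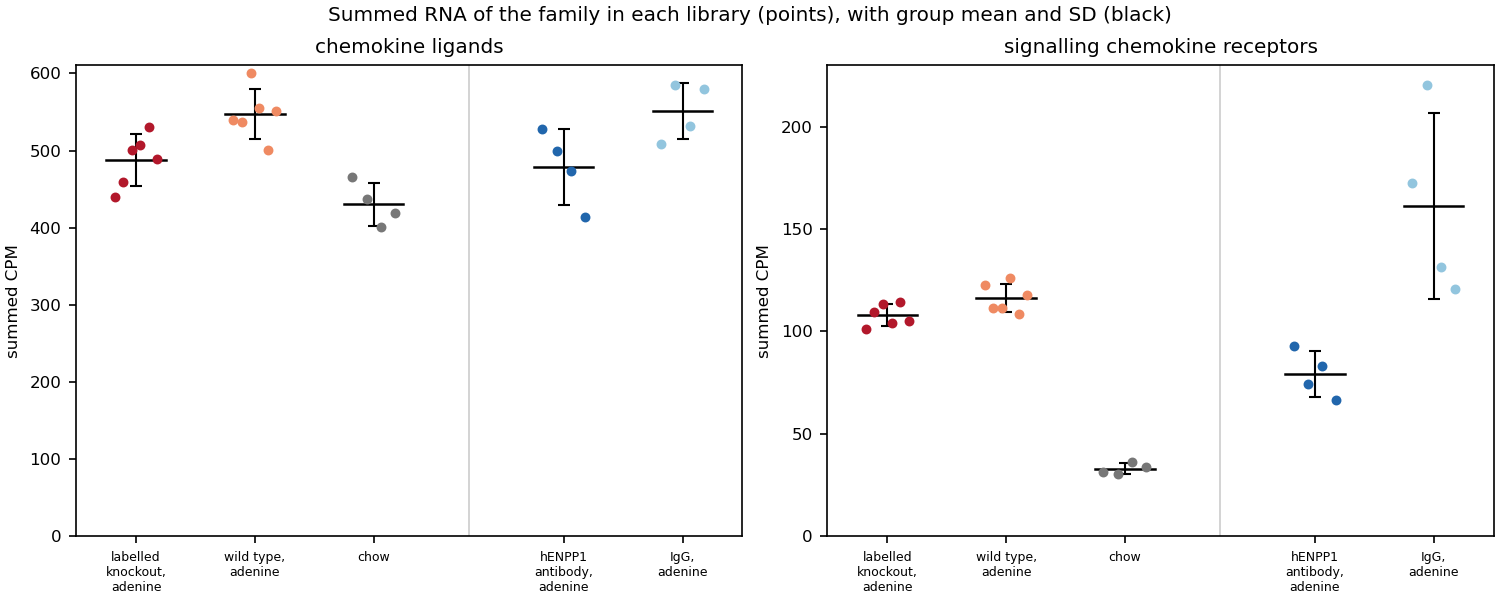
Summed CPM of the 35 ligands (left) and the 18 signalling receptors (right) in each library, with a linear axis from 0; points are libraries, black lines the group mean and bars 1 SD. Receptor totals on adenine in the knockout experiment were 101 to 126 CPM and on chow 30.6 to 36.3 CPM; the antibody experiment, right of the grey line, was scaled on its own.

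Ligands of Cxcr2, the chief neutrophil chemokine receptor, were among the members with the steepest rises, together with Cxcl17 and Ccl20. Cxcl1 was 65.5 to 130 CPM in wild-type adenine libraries, with a median of 86.8, against 0.623, 0.891, 0.692 and 0.710 CPM in the chow libraries. The groups did not come near each other, and the log2 change was 6.95 ± 0.29 (SE; edgeR adjusted p = 5.05e-14). Cxcl2 was 14.98 to 21.1 CPM in wild-type adenine libraries, with a median of 17.0, against 0, 0.0524, 0.198 and 0.101 CPM on chow, a log2 change of 7.54 ± 0.36 (SE; edgeR adjusted p = 3.15e-13). Both are made by stressed epithelium and by leukocytes.

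Cxcl5, an epithelial ligand of the same receptor, was 9.29 to 21.8 CPM in wild-type adenine libraries (median 11.7) and 0.0480, 0, 0.0495 and 0.0507 CPM on chow. Only 3 Cxcl5 reads were counted over the 4 chow libraries against 2063 over the 6 wild-type adenine libraries, a ratio of 350 with an exact 95% counting interval of 120 to 1700. Cxcl3 was 0.952 to 1.58 CPM in wild-type adenine libraries (median 1.26), and 1 read was counted over the chow libraries, which gave a ratio of 103 (18.3 to 4100). These intervals cover counting error only. Cxcr2 itself changed far less: 13.8 to 17.8 CPM in wild-type adenine libraries (median 15.6) against 6.76, 8.70, 11.1 and 9.78 CPM on chow, a log2 change of 0.79 ± 0.10 (SE; edgeR adjusted p = 9.76e-07). Cxcr1, the other receptor for such ligands, stayed below the filter, with 12 reads over the wild-type adenine libraries and 0 over chow.

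The summed level of 9 neutrophil markers was 32.2 to 52.6 CPM in wild-type adenine libraries and 1.57 to 2.13 CPM on chow, where Mmp8, Camp and Ngp had 0 reads. All 6 of those markers that were tested rose, and their part in the chemokine changes was not tested. In bulk tissue, fewer cells of a type and less RNA per cell cannot be told apart.

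Among further mucosal and epithelial ligands, Cxcl17, a mucosal chemokine, was 4.61 to 8.83 CPM in wild-type adenine libraries (median 8.08) and 0, 0.105, 0.0495 and 0.0507 CPM on chow (log2 change 7.07 ± 0.36, SE; edgeR adjusted p = 1.07e-12). Ccl20, the ligand of Ccr6, was 4.39 to 6.12 CPM in wild-type adenine libraries (median 5.29) and 0.0480, 0, 0 and 0.152 CPM on chow (log2 change 6.58 ± 0.37, SE; edgeR adjusted p = 3.28e-12). Its receptor Ccr6 was below the filter, at 0.149 to 0.413 CPM in wild-type adenine libraries (median 0.213) and 0, 0, 0.198 and 0.101 CPM on chow. Ccl28, a mucosal ligand of Ccr3 and Ccr10, was higher in every wild-type adenine library (19.6 to 24.0 CPM, median 20.7) than in any chow library (10.8, 9.33, 9.40 and 8.82 CPM). Its log2 change was 1.15 ± 0.10 (SE; edgeR adjusted p = 1.25e-09), while Ccr3 and Ccr10 were below the filter. Ccl20 and Ccl28 thus rose with little RNA of these receptors in the libraries.

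**Figure D2:**
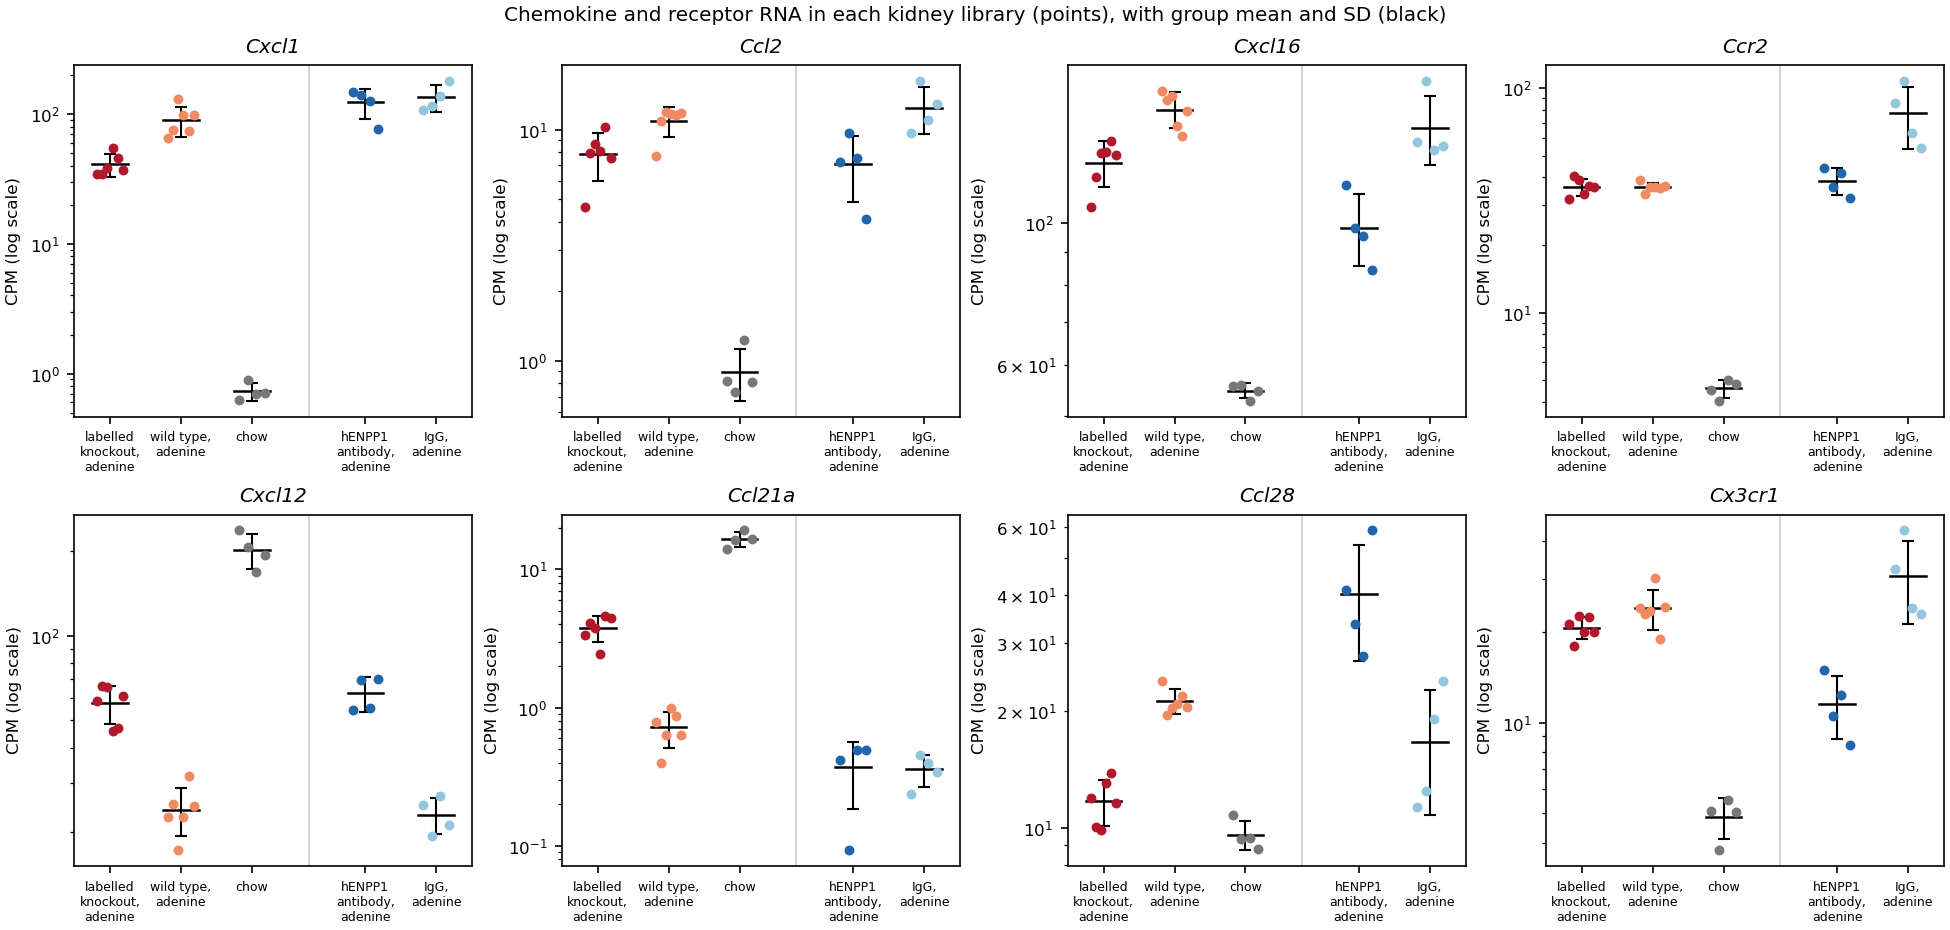
CPM of 8 members in each library on a log axis; points are libraries, black lines the group mean and bars 1 SD, and the grey line divides the 2 experiments, which were scaled apart. Cxcl1, Ccl2, Cxcl16, Ccr2, Ccl28 and Cx3cr1 were lower on chow than in wild-type adenine kidneys, and Cxcl12 and Ccl21a were higher on chow; with the antibody Cxcl12 and Ccl28 lay above IgG in all libraries.

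The monocyte axis rose together. Ccr2, which marks inflammatory monocytes, was 33.8 to 38.8 CPM in wild-type adenine libraries (median 36.3) and 4.51, 4.04, 5.00 and 4.82 CPM on chow. This was the receptor with the largest log2 change, 2.98 ± 0.08 (SE; edgeR adjusted p = 5.27e-16). Among its ligands, Ccl2 was 7.65 to 11.9 CPM in wild-type adenine libraries (median 11.6) and 0.815, 0.734, 1.24 and 0.811 CPM on chow, a log2 change of 3.59 ± 0.23 (SE; edgeR adjusted p = 2.54e-11). Ccl7, which shares that receptor, was 3.16 to 5.88 CPM (median 4.50) against 0, 0.0524, 0.0989 and 0.304 CPM, a log2 change of 5.26 ± 0.39. Ccl8 was followed with these ligands, and its receptor in mice was not examined here. It was 2.60 to 5.09 CPM (median 3.66) against 0.144, 0.262, 0.297 and 0.456 CPM, a log2 change of 3.62 ± 0.28. Ccl12, a mouse relative of Ccl2, was 2.11 to 3.89 CPM (median 2.72) against 0.384, 0.210, 0.445 and 0.710 CPM, a log2 change of 2.67 ± 0.26. None of these wild-type adenine libraries overlapped chow.

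Cx3cr1, a receptor of resident macrophages and patrolling monocytes, was 19.0 to 30.3 CPM in wild-type adenine libraries (median 23.8) and 5.08, 3.77, 5.54 and 5.07 CPM on chow (log2 change 2.29 ± 0.12, SE; edgeR adjusted p = 2.28e-12). Its ligand Cx3cl1, a membrane-anchored chemokine of epithelium and endothelium, was 64.5 to 70.0 CPM (median 68.7) against 56.6, 56.4, 51.5 and 52.7 CPM. The log2 change of Cx3cl1 was 0.33 ± 0.05 (edgeR adjusted p = 6.08e-06). In CPM the receptor thus moved by several times more than the ligand on the log2 scale. The gap was smaller on TPM, which was not scaled within the experiment. There Cx3cl1 averaged 28.9 ± 3.2 in wild-type adenine kidneys (SD, n = 6) and 11.3 ± 0.82 on chow (SD, n = 4). Cx3cr1 averaged 7.69 ± 1.0 and 0.857 ± 0.12 TPM in these groups. Of 10 macrophage and monocyte markers 8 rose; the summed level of the 10 was 309 to 439 CPM in wild-type adenine libraries and 167 to 183 CPM on chow. Their part in these changes was not tested.

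Ligands of Ccr1, a receptor of macrophages and other leukocytes, and their relatives rose as well. Ccl5 was 6.73 to 11.6 CPM in wild-type adenine libraries (median 8.29) and 1.15, 0.681, 0.791 and 0.963 CPM on chow (log2 change 3.24 ± 0.20, SE; edgeR adjusted p = 1.02e-11). Ccl3 was 1.56 to 2.36 CPM (median 1.90) against 0.288, 0.314, 0.247 and 0.355 CPM, and Ccl4 was 1.04 to 1.41 CPM (median 1.12) against 0.527, 0.472, 0.396 and 0.963 CPM. Their log2 changes were 2.66 ± 0.37 and 0.97 ± 0.24 (edgeR adjusted p = 1.82e-06 and 0.00117), and the Ccl4 groups were separated by a narrow margin. Ccl9 and Ccl6, myeloid ligands of Ccr1 in mice, rose by 3.18 ± 0.18 and 2.47 ± 0.22. The receptor followed, with Ccr1 at 4.39 to 8.71 CPM (median 5.49) against 1.199, 0.943, 0.841 and 1.17 CPM on chow and a log2 change of 2.53 ± 0.21 (SE; edgeR adjusted p = 1.28e-09).

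The axis of Cxcr3, a receptor of effector T cells and NK cells, split. Cxcl10, its interferon-induced ligand, was 15.1 to 37.0 CPM in wild-type adenine libraries (median 21.1) and 5.32, 6.18, 6.18 and 7.96 CPM on chow, a log2 change of 1.81 ± 0.23 (SE; edgeR adjusted p = 4.89e-07). Cxcl9, a further such ligand, was 2.14 to 3.77 CPM (median 3.27) against 3.21, 4.40, 4.30 and 3.09 CPM and did not pass (log2 change -0.29, 95% interval -0.65 to 0.07). Cxcr3 was 0.745 to 1.74 CPM (median 1.36) against 1.199, 0.891, 0.989 and 1.47 CPM and did not pass either (log2 change 0.18, 95% interval -0.30 to 0.66). Cxcl16, a transmembrane chemokine and the ligand with the highest median CPM in wild-type adenine libraries, was 136 to 161 CPM (median 152) against 55.7, 55.8, 52.7 and 54.7 CPM, a log2 change of 1.46 ± 0.07 (edgeR adjusted p = 2.08e-13). Its receptor Cxcr6 was 0.828 to 2.11 CPM (median 1.17) in wild-type adenine libraries and 1.01, 1.10, 1.19 and 1.11 CPM on chow, and did not pass (95% interval of the log2 change -0.35 to 0.76). These readings of Cxcr6 and Cxcr3 depend on the scaling. On TPM, which was not scaled within the experiment, Cxcr6 was 0.495 to 1.55 in wild-type adenine libraries and 0.384 to 0.424 on chow, without overlap. Cxcr3 overlapped on TPM, at 0.495 to 1.42 (mean 0.99) against 0.373 to 0.602 (mean 0.469).

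The 7 members that fell include ligands that stromal and lymphatic cells make at rest. Ccl21a, made by lymphatic endothelium, was 0.400 to 0.994 CPM in wild-type adenine libraries (median 0.710) and 14.1, 16.2, 19.1 and 16.6 CPM on chow. It had the largest fall of the family apart from its copy Ccl21b, with a log2 change of -4.52 ± 0.18 (SE; edgeR adjusted p = 4.01e-14). Ccl21b is nearly identical to it, was at 0 in 2 of 4 chow libraries and read 2.25 and 5.14 CPM in the others, and its own values are uncertain because shared reads were divided between the copies. With the copies summed the log2 change was -4.55. Ccl19, the other ligand of Ccr7, was 0.720 to 1.34 CPM (median 1.30) against 5.18, 5.19, 5.34 and 6.08 CPM, a log2 change of -2.22 ± 0.16. Ccr7, which brings dendritic cells and T cells to lymph nodes, went the other way, at 0.654 to 1.43 CPM (median 1.10) against 0.575, 0.786, 0.495 and 0.355 CPM (log2 change 0.96 ± 0.26; edgeR adjusted p = 0.00245).

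Cxcl12, the stromal ligand of Cxcr4, was 17.2 to 31.7 CPM in wild-type adenine libraries (median 23.8) and 237, 206, 168 and 193 CPM on chow, a log2 change of -3.06 ± 0.14 (SE; edgeR adjusted p = 1.40e-13). Ackr3, an atypical receptor that takes up Cxcl12, was 18.7 to 23.9 CPM (median 21.4) against 58.5, 54.0, 47.0 and 52.9 CPM, a log2 change of -1.32 ± 0.09. Cxcr4 rose to 8.07 to 12.7 CPM (median 9.95) in wild-type adenine libraries, against 4.80, 5.19, 4.55 and 5.07 CPM on chow (log2 change 1.06 ± 0.14; edgeR adjusted p = 7.41e-07). In CPM, ligand and scavenger were thus lower, and the signalling receptor higher, in every wild-type adenine library than in any chow library. On TPM, which was not scaled within the experiment, Ackr3 overlapped, at 8.83 to 10.9 in wild-type adenine libraries and 10.5 to 13.5 on chow. Cxcl14, a chemokine of resting epithelium and stroma, was 11.5 to 18.8 CPM (median 13.6) against 39.2, 37.7, 38.2 and 37.7 CPM, a log2 change of -1.44 ± 0.10. Ackr4, a scavenger of Ccl19 and Ccl21, fell by 1.23 on the log2 scale. On TPM it overlapped too, at 0.170 to 0.443 in wild-type adenine libraries and 0.268 to 0.385 on chow. The 6 blood endothelial markers all fell, with sums of 100 to 148 CPM in wild-type adenine libraries and 366 to 419 CPM on chow, and 3 of 4 lymphatic markers fell while 1 rose, so that the lymphatic sums overlapped (28.2 to 43.1 CPM in wild-type adenine libraries and 27.9 to 32.6 CPM on chow). All 5 red blood cell markers fell, with sums of 12.5 to 35.6 CPM in wild-type adenine libraries and 1072 to 1295 CPM on chow, and of 3 adipose markers tested 2 fell and 1 rose, with sums of 1.26 to 1.69 CPM against 4.45 to 13.8 CPM. The part of these markers in the chemokine changes was not tested.

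**Figure D3:**
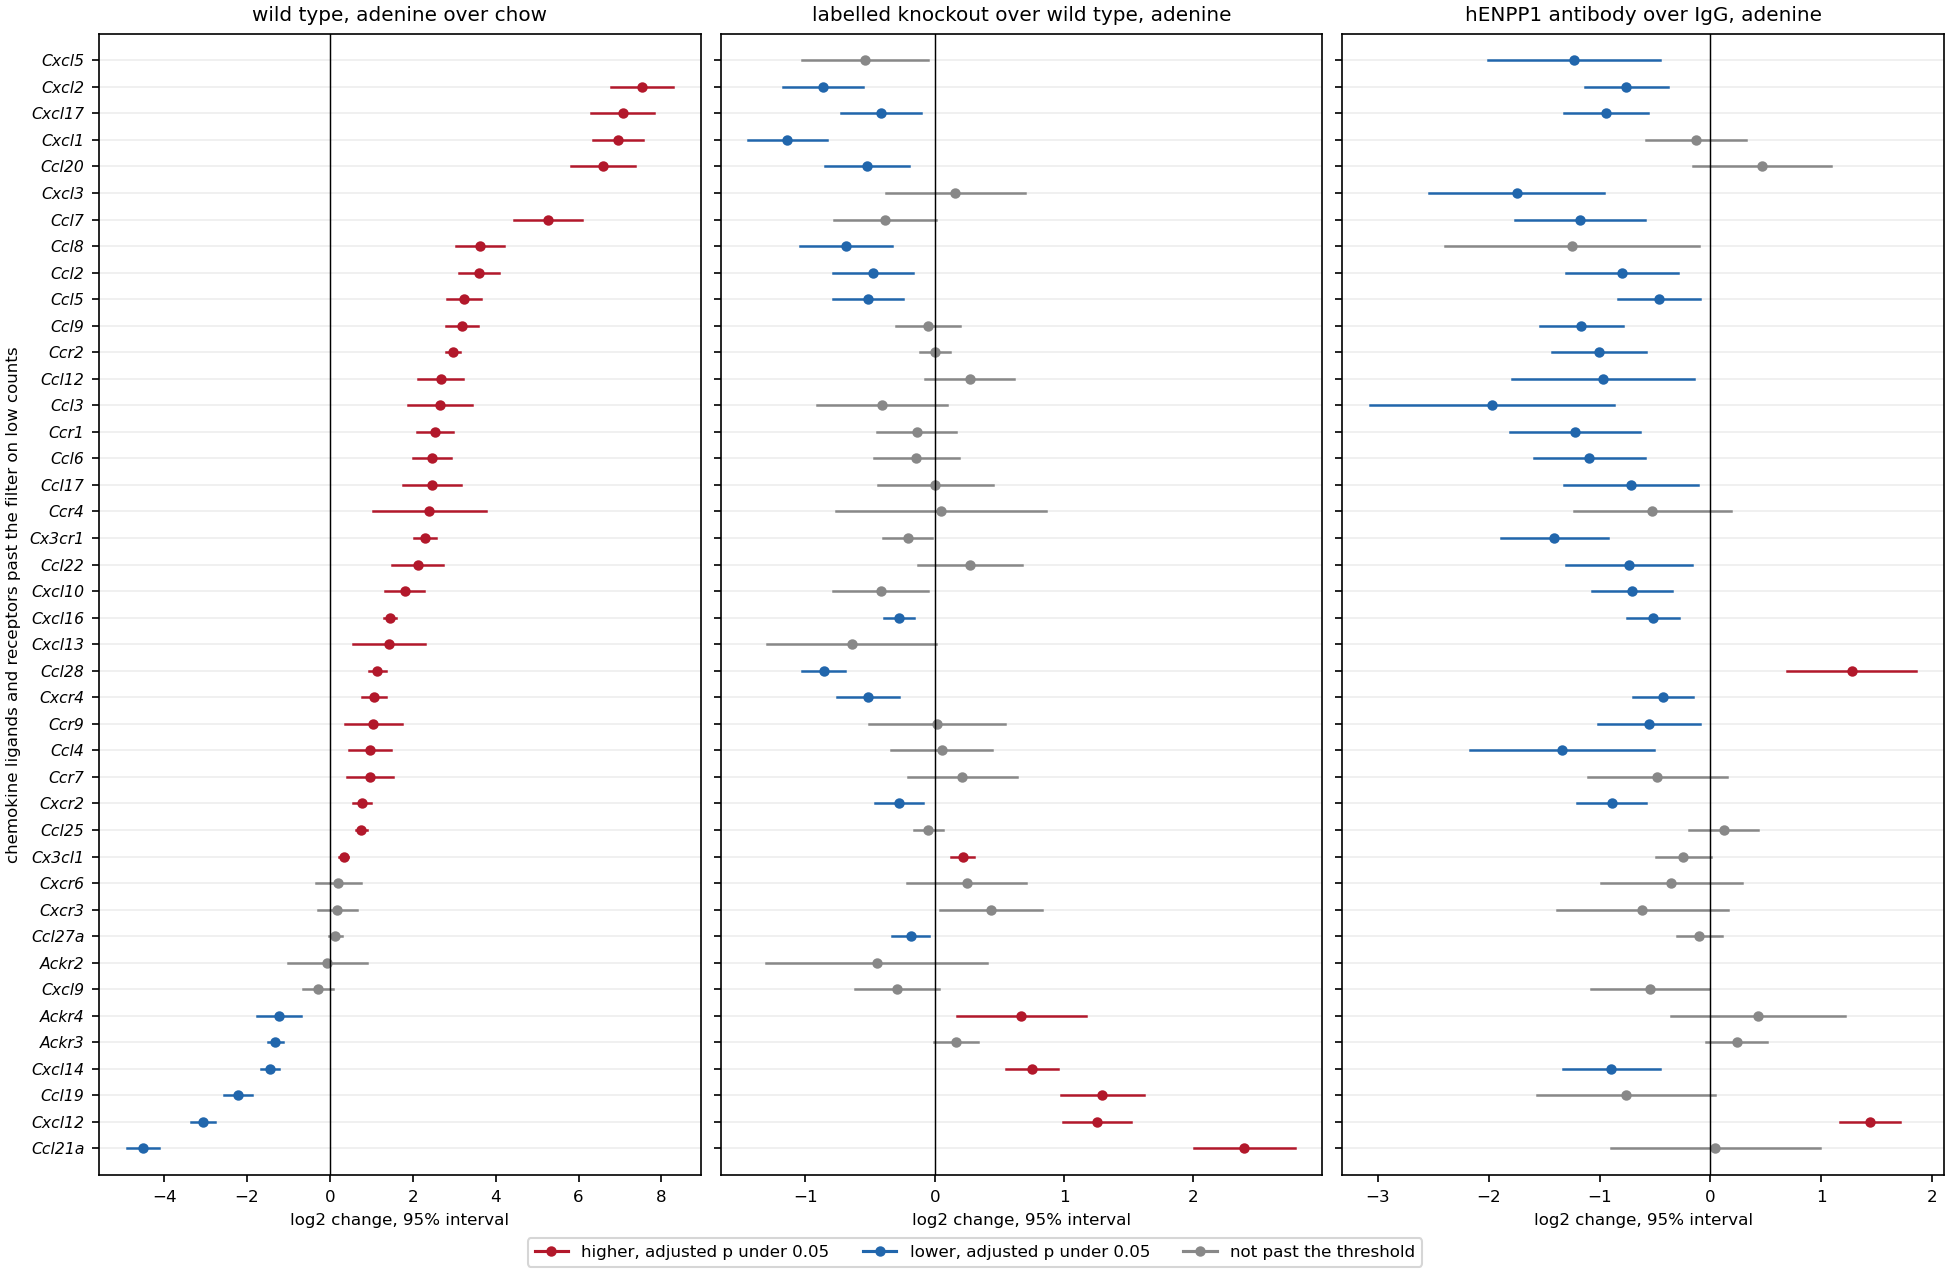
Log2 change (point) with its 95% interval (line) for members past the filter in wild-type adenine over chow (left), labelled knockout over wild type (middle) and antibody over IgG (right), ordered by the left panel and coloured by call. The horizontal scales differ between panels; Ccl21b is not drawn, and Cxcl5 and Cxcl3 are not drawn at left, where chow held at most 3 reads. The left panel runs from Ccl21a at -4.52 to Cxcl2 at 7.54.

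The comparison of labelled knockout with wild-type kidneys, both on adenine, asked what the ENPP1 genotype does under injury. Of the 44 members tested, 7 were higher and 12 lower in labelled knockout libraries, and 25 did not pass. That is 15.9% higher against 25.1% of all genes tested, and 27.3% lower against 21.3% of all genes, so the counts alone do not set the family apart from other genes. The median log2 change was -0.10 for the members and -0.02 for all genes. Of 30 ligands 6 were higher and 10 lower; of 11 signalling receptors 2 were lower, and 0 were called higher by edgeR, with 1 at an unadjusted p under 0.05 and 0 by DESeq2 among the 8 recomputed. The libraries did not overlap in 5 members that were higher and 5 that were lower, of 44, against 14.4% and 10.2% of all genes tested.

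The 5 that were higher without overlap were Ccl21a, Ccl19, Cxcl12, Cxcl14 and Cx3cl1. Ccl21a was 2.44 to 4.58 CPM in labelled knockout libraries (median 3.95), against the 0.400 to 0.994 CPM of wild type, a log2 change of 2.40 ± 0.19 (SE; edgeR adjusted p = 3.24e-08). Ccl19 was 2.20 to 3.41 CPM in labelled knockout libraries (median 2.85) and 0.720 to 1.34 CPM in wild type, a log2 change of 1.30 ± 0.15 (SE; edgeR adjusted p = 2.14e-06). Both ligands of Ccr7 were thus higher in all 6 labelled knockout libraries, whereas Ccr7 did not pass (log2 change 0.21, 95% interval -0.21 to 0.63). With the Ccl21 copies summed the log2 change was 2.798, and Ccl21b alone lost its call with limma voom (adjusted p = 0.094).

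Cxcl12 was 46.0 to 66.1 CPM in labelled knockout libraries (median 59.8) and 17.2 to 31.7 CPM in wild type, a log2 change of 1.25 ± 0.13 (SE; edgeR adjusted p = 3.89e-07). Its receptor Cxcr4 was 5.54 to 8.83 CPM in labelled knockout libraries (median 7.01) and 8.07 to 12.7 CPM in wild type, a log2 change of -0.52 ± 0.11 (SE; edgeR adjusted p = 0.00115). The ligand was higher and the receptor lower. Ackr3 did not pass, at 20.4 to 29.7 CPM (median 23.1) against 18.7 to 23.9 CPM (95% interval of the log2 change -0.01 to 0.33). Cxcl14 was 19.9 to 27.9 CPM in labelled knockout libraries (median 23.6) and 11.5 to 18.8 CPM in wild type, a log2 change of 0.75 ± 0.10 (SE; edgeR adjusted p = 5.50e-06). Cx3cl1 was 72.2 to 87.1 CPM (median 79.1) against 64.5 to 70.0 CPM, a log2 change of 0.21 ± 0.04. In the same comparison all 6 blood endothelial markers were higher, with sums of 135 to 201 CPM in labelled knockout libraries and 100 to 148 CPM in wild type, and 2 of 4 lymphatic markers were higher (sums 30.1 to 40.1 CPM against 28.2 to 43.1 CPM). All 5 red blood cell markers were higher too, with sums of 204 to 492 CPM against 12.5 to 35.6 CPM; the part of these markers in the chemokine values was not tested.

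Among the members that were lower, Cxcl1 led: 34.4 to 55.3 CPM in labelled knockout libraries (median 37.8) against 65.5 to 130 CPM in wild type. Its log2 change was -1.14 ± 0.14 (SE; edgeR adjusted p = 4.93e-06), and every labelled knockout library lay below every wild-type library. Cxcl2 was 6.03 to 14.0 CPM in labelled knockout libraries (median 9.12) and 14.98 to 21.1 CPM in wild type, a log2 change of -0.87 ± 0.15 (SE; edgeR adjusted p = 0.000109). The other ligands of Cxcr2 did not pass. Cxcl5 was 5.41 to 16.2 CPM (median 8.16) in labelled knockout libraries and 9.29 to 21.8 CPM in wild type (95% interval of the log2 change -1.02 to -0.05; edgeR adjusted p = 0.0651), and Cxcl3 was 0.823 to 2.86 CPM (median 1.17) against 0.952 to 1.58 CPM (95% interval -0.38 to 0.70). Cxcr2 was 12.1 to 14.1 CPM (median 12.8) against 13.8 to 17.8 CPM, a log2 change of -0.28 ± 0.09 (edgeR adjusted p = 0.0141). The 6 tested neutrophil markers had a median log2 change of -0.20, and the sums of all 9 overlapped, at 18.7 to 48.4 CPM in labelled knockout libraries and 32.2 to 52.6 CPM in wild type.

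Ccl28 was 9.85 to 13.8 CPM in labelled knockout libraries (median 11.8) and 19.6 to 24.0 CPM in wild type, with no overlap and a log2 change of -0.86 ± 0.08 (SE; edgeR adjusted p = 1.87e-07). Ccl5 and Cxcl16 also separated fully: Ccl5 was 4.83 to 6.71 CPM (median 6.10) in labelled knockout libraries and 6.73 to 11.6 CPM in wild type, and Cxcl16 was 106 to 134 CPM (median 128) in labelled knockout libraries and 136 to 161 CPM in wild type. Their log2 changes were -0.52 ± 0.13 and -0.28 ± 0.06 (SE; edgeR adjusted p = 0.00292 and 0.000543). Both had narrow gaps between the groups.

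Of the ligands followed with Ccr2, Ccl8 and Ccl2 were lower, while Ccl7, Ccl12 and Ccr2 itself did not pass. Ccl8 was 1.79 to 2.62 CPM in labelled knockout libraries (median 2.32) and 2.60 to 5.09 CPM in wild type (log2 change -0.69 ± 0.17, SE; edgeR adjusted p = 0.00293). Ccl2 was 4.62 to 10.2 CPM (median 7.98) against 7.65 to 11.9 CPM (log2 change -0.48 ± 0.15; edgeR adjusted p = 0.0121), with overlap. Ccr2 was 32.0 to 40.5 CPM in labelled knockout libraries (median 36.3) and 33.8 to 38.8 CPM in wild type, and the 95% interval of its log2 change ran from -0.11 to 0.12. Ccl7 was 3.06 to 4.21 CPM in labelled knockout libraries (median 3.33) and 3.16 to 5.88 CPM in wild type, and Ccl12 was 2.58 to 4.08 CPM (median 3.38) against 2.11 to 3.89 CPM. Neither passed. Ccl20 was lower, at 2.77 to 4.98 CPM (median 3.62) against 4.39 to 6.12 CPM (log2 change -0.52 ± 0.15; edgeR adjusted p = 0.00931). Cxcl17 was lower by a smaller margin (log2 change -0.41; edgeR adjusted p = 0.0274, and 0.0513 to 0.0666 in the 6 fits without labelled knockout replicate 2 or 3 or without wild-type replicate 1, 2, 3 or 4).

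The remaining leukocyte axes overlapped between labelled knockout and wild-type libraries, and their members did not pass. Cx3cr1 was 17.9 to 22.5 CPM in labelled knockout libraries (median 20.6) and 19.0 to 30.3 CPM in wild type (edgeR adjusted p = 0.0657). Ccr1 was 4.74 to 7.21 CPM (median 5.33) against 4.39 to 8.71 CPM, with a 95% interval of the log2 change of -0.45 to 0.16. Its ligand Ccl3 was 0.705 to 2.75 CPM in labelled knockout libraries (median 1.37) and 1.56 to 2.36 CPM in wild type, and Ccl4 was 0.786 to 1.501 CPM (median 1.197) against 1.04 to 1.41 CPM. None of these ranges lay clear of the other group's.

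On the Cxcr3 axis, Cxcl10 was 15.1 to 22.0 CPM in labelled knockout libraries (median 15.3) and 15.1 to 37.0 CPM in wild type (edgeR adjusted p = 0.0573). Cxcl9 was 1.998 to 2.93 CPM (median 2.56) against 2.14 to 3.77 CPM, and Cxcr3 was 1.36 to 2.15 CPM (median 1.71) against 0.745 to 1.74 CPM (edgeR adjusted p = 0.134 and 0.0665). All 3 overlapped between the groups. Cxcr6 was 0.862 to 1.94 CPM in labelled knockout libraries (median 1.57) and 0.828 to 2.11 CPM in wild type, and Cxcl13 was 0.221 to 0.563 CPM (median 0.399) against 0.377 to 1.08 CPM (edgeR adjusted p = 0.375 and 0.1).

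Set against chow, which supplies the same control libraries as above, labelled knockout libraries on adenine had 32 of 44 members higher and 7 lower, where all genes had 40.2% higher and 39.9% lower. The members' median log2 change was 1.28 (all genes 0.03). Side by side, the log2 change from chow was -2.13 for Ccl21a in labelled knockout and -4.52 in wild type, and for Cxcl12 it was -1.81 in labelled knockout and -3.06 in wild type. For Cxcl1 it was 5.81 in labelled knockout and 6.95 in wild type, and for Ccl28 it was 0.29 in labelled knockout and 1.15 in wild type. Cxcl5 counted 1416 reads over the labelled knockout libraries against 3 on chow, a ratio of 243 (exact 95% counting interval 82.9 to 1180). Ccr2, at 2.98 in both, differed from chow by the same amount to 2 decimals. In CPM, Cxcl9 was lower than chow in labelled knockout libraries (log2 change -0.59 ± 0.17; edgeR adjusted p = 0.00474). On TPM, which was not scaled within the experiment, it was not lower. There the groups overlapped, at 0.754 to 1.215 (mean 1.00) in labelled knockout libraries and 0.716 to 1.047 (mean 0.878) on chow.

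The antibody comparison asked what the hENPP1 antibody does in kidneys on adenine. Of 42 members tested, 2 were higher and 24 lower with the antibody, and 16 did not pass. That is 4.76% higher and 57.1% lower, against 27.2% higher and 28% lower among all genes tested, with a median log2 change of -0.71 for the members and -0.04 for all genes. Of 29 ligands 17 were lower and 2 higher, and of 11 signalling receptors 7 were lower, and 0 were called higher by edgeR (0 at an unadjusted p under 0.05, and 0 by DESeq2 among the 9 recomputed). The libraries did not overlap in 19 of the lower members and in both higher ones, against 25.2% of all genes lying fully below IgG and 25.4% fully above. Receptor RNA summed to 92.8, 74.1, 82.9 and 66.6 CPM with the antibody and 172, 220.5, 132 and 121 CPM with IgG.

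Receptors of monocytes and macrophages were lower in all antibody libraries. Ccr2 was 44.0, 36.4, 42.1 and 32.4 CPM with the antibody and 86.2, 107, 63.0 and 54.1 CPM with IgG, a log2 change of -1.004 ± 0.19 (SE; edgeR adjusted p = 0.00126). Cx3cr1 was 14.9, 10.5, 12.4 and 8.45 CPM with the antibody and 32.4, 43.4, 24.0 and 22.9 CPM with IgG, a log2 change of -1.41 ± 0.22 (SE; edgeR adjusted p = 0.000386). Ccr1 was 5.73, 4.55, 3.07 and 3.15 CPM with the antibody and 9.35, 14.7, 7.62 and 6.85 CPM with IgG, a log2 change of -1.22 ± 0.27. In all of these IgG replicate 2 was the highest library.

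The other signalling receptors followed here were mixed, and which cells held their RNA was not tested. Cxcr2 was 7.17, 5.66, 5.21 and 6.17 CPM with the antibody and 13.1, 12.2, 8.99 and 10.7 CPM with IgG, a log2 change of -0.89 ± 0.14 (SE; edgeR adjusted p = 0.000408). Cxcr4 was 6.35, 5.06, 7.48 and 6.2 CPM with the antibody and 7.77, 8.73, 8.90 and 8.42 CPM with IgG, a log2 change of -0.43 ± 0.12 (SE; edgeR adjusted p = 0.0119). Both separated fully. Cxcr3 was 0.296, 0.394, 0.375 and 0.284 CPM with the antibody and 0.428, 0.667, 0.722 and 0.248 CPM with IgG. Cxcr6 was 0.667, 0.742, 1.05 and 0.723 CPM with the antibody and 0.813, 1.60, 0.722 and 0.935 CPM with IgG. Ccr7 was 0.519, 0.441, 0.352 and 0.517 CPM with the antibody and 0.364, 0.719, 0.704 and 0.744 CPM with IgG. These 3 overlapped and did not pass, with edgeR adjusted p = 0.16, 0.32 and 0.173.

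Of 10 macrophage and monocyte markers 9 were lower with the antibody, with sums of 122 to 187 CPM against 265 to 475 CPM with IgG. Neutrophil markers summed to 3.05 to 4.89 CPM with the antibody and 6.94 to 12.8 CPM with IgG, 3 of 5 tested being lower, and Camp had 0 reads in both groups. The 8 kidney markers summed to 4185 to 5844 CPM with the antibody and 2043 to 2594 CPM with IgG. Of 6 blood endothelial markers 2 were lower and 0 higher with the antibody. Their sums were 82.47 to 92.71 CPM against 104.7 to 124.4 CPM with IgG. Of 3 lymphatic markers tested 2 were lower and 0 higher. The sums of all 4 were 17.98 to 23.87 CPM with the antibody and 34.33 to 50.88 CPM with IgG. Of 5 red blood cell markers 0 passed, and their sums overlapped (37.63 to 56.27 CPM against 25.31 to 49.7 CPM). The part of these markers in the chemokine values was not tested. Without IgG replicate 2, 19 members were lower and 2 higher.

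Several ligands followed with Ccr1 and Ccr2 were lower as well. Ccl9 was 14.2, 13.04, 14.2 and 10.5 CPM with the antibody and 25.3, 41.2, 24.3 and 25.6 CPM with IgG, a log2 change of -1.16 ± 0.17 (SE; edgeR adjusted p = 0.000286). Ccl7 was 3.19, 3.57, 2.30 and 1.42 CPM with the antibody and 5.48, 8.21, 4.98 and 5.04 CPM with IgG, a log2 change of -1.18 ± 0.27 (SE; edgeR adjusted p = 0.00343). Ccl2 was 7.24, 9.65, 7.53 and 4.11 CPM with the antibody and 9.70, 16.2, 10.9 and 12.9 CPM with IgG, a log2 change of -0.80 ± 0.23. The Ccl2 groups came within a narrow margin of each other, and those of Ccl7 and Ccl9 did not. Ccl3 was 0.321, 0.162, 0.0469 and 0.181 CPM with the antibody and 0.407, 1.25, 0.614 and 0.515 CPM with IgG (log2 change -1.97 ± 0.50; edgeR adjusted p = 0.00645). Ccl4 was 0.346, 0.325, 0.234 and 0.103 CPM with the antibody and 0.492, 0.982, 0.505 and 0.592 CPM with IgG (log2 change -1.34 ± 0.38; edgeR adjusted p = 0.0111). Both were low in all libraries, and lower with the antibody without overlap. Ccl8 was 0.988, 0.186, 0.656 and 0.258 CPM with the antibody and 0.471, 1.93, 1.05 and 1.51 CPM with IgG, and did not pass (edgeR adjusted p = 0.0608).

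Ccl12 was 2.79, 1.76, 1.5 and 0.542 CPM with the antibody and 2.93, 4.67, 2.65 and 2.67 CPM with IgG (log2 change -0.97 ± 0.37; edgeR adjusted p = 0.0462). Ccl5 was 3.81, 2.95, 3.54 and 2.66 CPM with the antibody and 5.59, 4.56, 4.10 and 3.67 CPM with IgG (log2 change -0.47 ± 0.17; edgeR adjusted p = 0.0354). The calls of Ccl12, Ccl5, Ccl17, Ccl22 and Ccr9 were the fragile ones of the antibody comparison: each was lost without 1 library in 5 or more of 8 such fits, with adjusted p up to 0.14 for Ccl12, 0.105 for Ccl5, 0.133 for Ccl17, 0.0919 for Ccl22 and 0.115 for Ccr9.

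Neutrophil ligands did not move as a block. Cxcl1 was 150, 141, 126 and 77.3 CPM with the antibody and 109, 115, 138 and 180 CPM with IgG; the groups overlapped, and the 95% interval of the log2 change was -0.58 to 0.32. Cxcl2 was 10.1, 9.51, 9.33 and 7.67 CPM with the antibody and 11.2, 15.5, 14.1 and 21.1 CPM with IgG, without overlap and with a log2 change of -0.76 ± 0.17 (SE; edgeR adjusted p = 0.00338). Cxcl3 was 0.321, 0.278, 0.188 and 0.284 CPM with the antibody and 0.621, 1.18, 0.523 and 1.28 CPM with IgG (log2 change -1.74 ± 0.36; edgeR adjusted p = 0.00198). Of the 3 ligands with the exact upstream site, Cxcl2 and Cxcl3 were lower and Cxcl1 did not pass; a difference between them was not tested. Cxcl5 was 6.94, 4.94, 4.15 and 2.58 CPM with the antibody and 5.09, 14.6, 8.63 and 15.4 CPM with IgG, overlapping (log2 change -1.23 ± 0.35; edgeR adjusted p = 0.0125, and 0.055 with replicate numbers as a block). Cxcl17 was 2.40, 2.34, 2.91 and 1.55 CPM with the antibody and 4.47, 4.47, 4.31 and 4.47 CPM with IgG, a log2 change of -0.94 ± 0.17.

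Of the interferon-induced and membrane-anchored ligands, Cxcl10 and Cxcl16 were lower, and Cxcl9 and Cx3cl1 did not pass. Cxcl10 was 19.8, 15.1, 21.9 and 16.4 CPM with the antibody and 39.9, 24.9, 30.1 and 24.7 CPM with IgG (log2 change -0.71 ± 0.16; edgeR adjusted p = 0.00386), while Cxcl9, at 4.13, 2.53, 5.98 and 3.80 CPM with the antibody and 6.49, 5.89, 4.29 and 7.29 CPM with IgG, did not pass (edgeR adjusted p = 0.076). Cxcl16 was 115, 98.3, 95.2 and 84.3 CPM with the antibody and 134, 166, 130 and 132 CPM with IgG (log2 change -0.52 ± 0.11; edgeR adjusted p = 0.00213). Cxcl14 was 5.51, 5.43, 6.03 and 4.65 CPM with the antibody and 11.9, 11.4, 10.9 and 5.90 CPM with IgG (log2 change -0.89 ± 0.20; edgeR adjusted p = 0.00317), and IgG replicate 4 alone reached the antibody libraries. Cx3cl1 did not pass, at 47.1, 50.6, 52.0 and 36.6 CPM with the antibody and 57.5, 61.1, 54.8 and 47.2 CPM with IgG (95% interval of the log2 change -0.49 to 0.01).

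Both members that were higher with the antibody separated fully from IgG. Cxcl12 was 54.4, 69.6, 55.1 and 70.3 CPM with the antibody and 24.9, 19.4, 26.8 and 21.2 CPM with IgG, a log2 change of 1.44 ± 0.12 (SE; edgeR adjusted p = 4.35e-05). Ccl28 was 41.2, 33.6, 27.9 and 58.8 CPM with the antibody and 11.3, 12.4, 19.1 and 24.0 CPM with IgG, a log2 change of 1.27 ± 0.27 (SE; edgeR adjusted p = 0.0022). Ackr3 was 39.7, 38.3, 40.3 and 27.0 CPM with the antibody and 26.0, 33.5, 32.3 and 31.6 CPM with IgG, and Ccl20 was 8.62, 9.33, 8.16 and 3.44 CPM with the antibody and 7.36, 3.86, 5.22 and 5.02 CPM with IgG. Neither passed with all libraries. Antibody replicate 4 was the lowest of its group in both, and without it 4 members were higher with the antibody, with these 2 added. Ccl21a, at 0.420, 0.0928, 0.492 and 0.491 CPM with the antibody and 0.235, 0.456, 0.397 and 0.344 CPM with IgG, and Ccl19, at 0.247, 0.162, 0.539 and 0.336 CPM against 0.428, 0.684, 0.415 and 0.649 CPM, did not pass.

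Whether the 2 interventions differed was tested as the knockout effect minus the antibody effect over the 20 adenine libraries. Of 45 members tested, 17 had a higher effect in the labelled knockout and 3 a lower one, while 25 did not pass. That is 37.8% higher and 6.67% lower, against 16.3% higher and 21.6% lower among all genes tested, with a median difference of 0.52 on the log2 scale for the members and -0.03 for all genes. The experiments differ in depth and were run as separate sets, so the difference of the interventions cannot be told apart from one between the experiments.

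Ccl28 differed most among the 3 lower ones: its log2 change was -0.86 in the labelled knockout and 1.27 with the antibody, a difference of -2.21 ± 0.27 (SE; edgeR adjusted p = 8.0e-06). Ccl21a, Ccl19 and Cxcl14 differed the other way, by 2.28 ± 0.44, 1.98 ± 0.36 and 1.57 ± 0.22 (edgeR adjusted p = 0.000443, 0.000291 and 2.61e-05). Cxcl1 and Ccl20 differed by -1.08 ± 0.28 and -1.07 ± 0.31, both having fallen in the labelled knockout and not passed with the antibody. The receptors Ccr1, Ccr2, Cxcr2, Cxcr3 and Cx3cr1 all differed, by 0.54 to 1.12; those of Ccr2 and Cx3cr1 were 0.93 ± 0.18 and 1.12 ± 0.23. For Cxcl12 the effects were 1.25 and 1.44, and the 95% interval of their difference ran from -0.67 to 0.15. For Cxcl2 the interval was -0.69 to 0.32, and for Ccl2 it was -0.35 to 0.84. The calls of Cxcr3 and Ccl3 were lost in 19 and 15 of 28 alternatives.

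**Figure D4:**
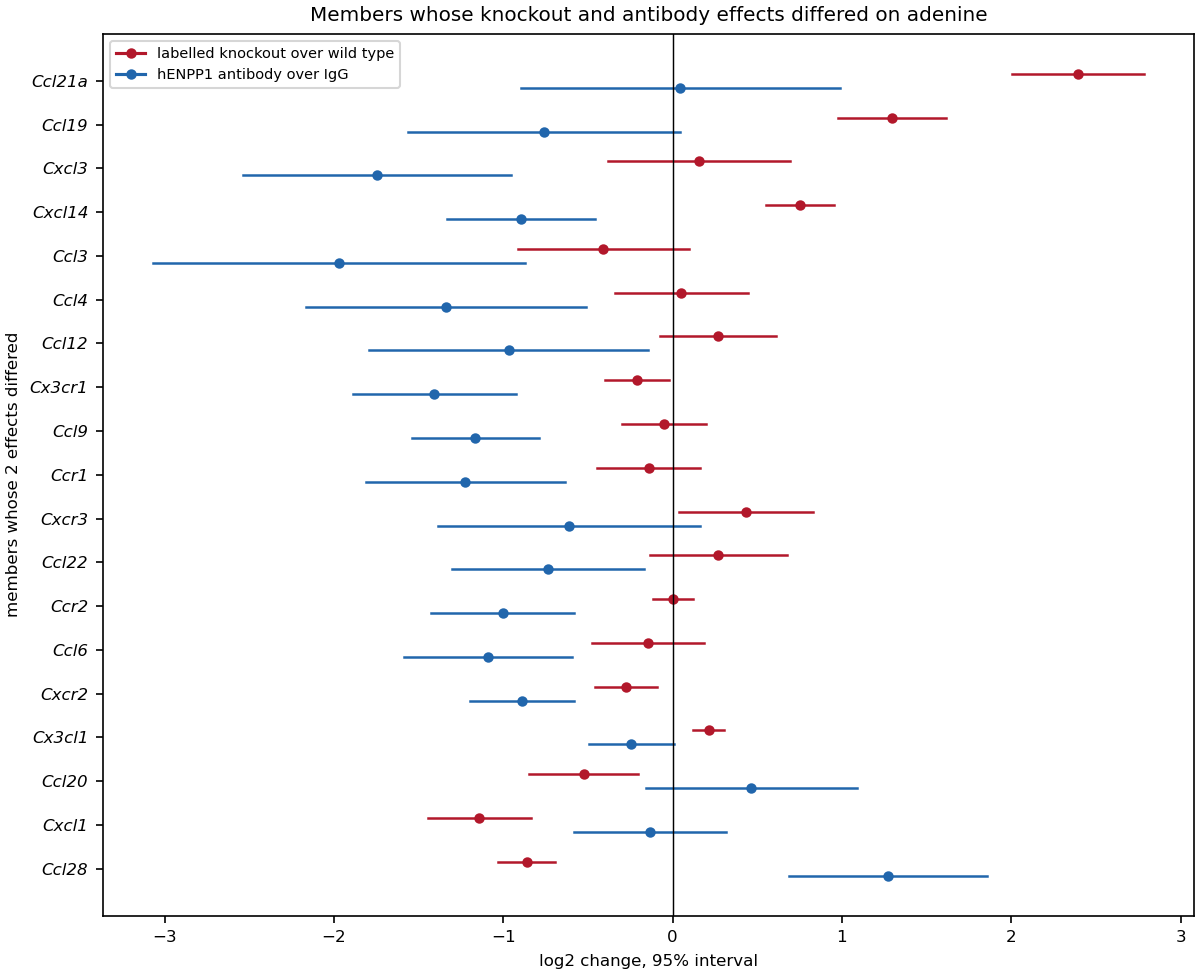
Log2 change (point) with its 95% interval (line) in labelled knockout over wild type (red, upper of each pair) and in antibody over IgG (blue, lower), for 19 members whose effects differed, ordered by the difference. Ccl28 at the bottom was -0.86 in the labelled knockout and 1.27 with the antibody, and Ccl21a at the top was 2.40 and 0.05.

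Of the 19 members called in the labelled knockout and the 26 called with the antibody, 10 were called in both, which is 52.6% and 38.5% of these lists; among all genes the calls shared were 63.4% and 55% of the lists, so the members' overlap was no larger than the background. Ccl2, Ccl5, Cxcl2, Cxcl16, Cxcl17, Cxcr2 and Cxcr4 were lower in both and Cxcl12 was higher in both. Cxcl14 was higher in the labelled knockout and lower with the antibody, and Ccl28 was the reverse.

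Other genes of chemokine biology, which are no members, were followed as a list of 35: further ligands and scavengers, G-protein subunits, arrestins and receptor kinases, migration effectors, and proteoglycans that hold ligands. In wild-type adenine against chow 21 were higher and 12 lower (all genes 44% and 40.9%), led by Fgr and Pik3r5, a myeloid kinase and a subunit of the leukocyte PI3K, with log2 changes of 3.57 ± 0.20 and 2.85 ± 0.17, and by Vav1, at 2.03 ± 0.14. In labelled knockout against wild type 4 were higher and 5 lower (all genes 25.1% and 21.3%), led by Dpp4, the protease that trims Cxcl12 and Cxcl10 (56.7 ± 8.4 CPM against 39.2 ± 3.1 CPM; log2 change 0.53 ± 0.08), then Rarres2, which encodes the attractant chemerin, at 0.41 ± 0.07; Pf4, a platelet chemokine, did not pass at 0.38 ± 0.15 (edgeR adjusted p = 0.0503). With the antibody 5 were higher and 22 lower (all genes 27.2% and 28%). The largest changes were those of Pf4, of Arrb2, a receptor arrestin, and of Dock2, with log2 changes of -1.49 ± 0.28, -1.09 ± 0.16 and -1.04 ± 0.18. Dpp4 was not among the 3 largest with the antibody and is given because it led in the labelled knockout. It was 73.8 ± 6.9 CPM with the antibody and 56.6 ± 3.2 CPM with IgG (log2 change 0.38 ± 0.08). Labelled knockout against chow had 21 higher and 12 lower (all genes 40.2% and 39.9%), led by Fgr, Pik3r5 and Plcb2 (3.31 ± 0.20, 2.50 ± 0.17 and 2.26 ± 0.15). For the difference of the effects 18 were higher and 2 lower (all genes 16.3% and 21.6%), led by Pf4, Cmklr1 and Plcb2 (1.79 ± 0.30, 1.03 ± 0.23 and 0.96 ± 0.19).

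Members below the filter were 13 in the knockout experiment and 15 in the antibody experiment. None of their group means exceeded 0.299 CPM, that of Ccl11 in labelled knockout libraries, or 0.174 CPM, that of Ccl24 with IgG. Ccl26 had 0 reads in all libraries. Ackr1, the scavenging receptor of venules and red cells, held 3 reads over the labelled knockout libraries, 8 over wild type on adenine and 3 over chow. Cxcr5, the receptor of follicular B cells, had 27 reads over the wild-type adenine libraries and 2 over chow, a ratio of 6.87 (exact 95% counting interval 1.73 to 59.6). Its ligand Cxcl13 was 0.377 to 1.08 CPM in wild-type adenine libraries (median 0.616) and 0.0480, 0.262, 0.396 and 0.253 CPM on chow, which passed with overlap (log2 change 1.42 ± 0.41; edgeR adjusted p = 0.00391). Ccr8 had 24 reads in wild-type adenine libraries and 0 on chow. With 3 reads over the chow libraries taken as the floor the ratio was 4.07, which leaves out the counting error of the 24 reads.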

How the data were processed

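Total RNA of kidney was made into strand-specific libraries, per the labels' protocols. Per the submitters' processing notes, the tools were FastQC, Salmon, DESeq and DESeq2 and the build GRCm39; versions and settings were not stated there. The authors deposited an estimated count per transcript, without normalization, as the column names show. TPM, in which the authors' quantification divides by transcript length, was also deposited and served only for levels between genes. Effective lengths, per the file headers, entered an alternative offset.

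Transcripts were assigned to genes by identifier with the GENCODE annotation of GRCm38, which is not the build named in the notes; 0.439% to 0.527% of reads were unmatched and left out. Counts were summed per gene and rounded. Genes past filterByExpr were tested with the quasi-likelihood test of edgeR 4.0.16 (R 4.3.3) with TMM scaling: the 16 libraries of the knockout experiment in a shared fit, the 8 of the antibody experiment in their own, and the 20 adenine libraries for the difference of effects. P-values were adjusted over all genes by Benjamini-Hochberg, two-sided, threshold 0.05. The edgeR test was tested on simulated data in which few genes were changed, so this does not check scaling where most genes change. Alternatives were other scalings, no filter, DESeq2 1.42.0, limma 3.58.1, a length offset, summed gene copies, a replicate block and each library left out. Reads carry no molecular identifiers, so counting intervals cover counting error only.

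Members and lists were chosen with earlier results of these data known. Named members are those of set ligand and receptor axes and the 5 largest rises and 5 largest falls per comparison among calls with a mean of at least 1 CPM in a group; the other genes of the pathway are a fixed list whose 3 largest changes are named, and further names were chosen after their values were seen. Some results of single genes are not reported here, though counts over the family and lists include every gene tested.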

Additional observations from a re-analysis of the deposited data

Results flagged for a closer look

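In 131 groups of values of the named members, 16 held a library far from the rest of its group. Chance alone gives such a gap in about 1 in 20 groups. In labelled knockout libraries, replicate 5 was high for Ccl9 (25.3 CPM), Ccr1 (7.21 CPM) and Cxcl3 (2.86 CPM), replicate 2 for Ackr3 (29.7 CPM) and replicate 4 for Cxcl10 (22.0 CPM). In wild type on adenine, replicate 1 was low for Ccl2 (7.65 CPM) and Cx3cl1 (64.5 CPM) and high for Cxcl5 (21.8 CPM), and replicate 4 was high for Ccl4 (1.41 CPM). Antibody replicate 4 was low for Ackr3 (27.0 CPM). IgG replicate 2 was high for Ccl7 (8.21 CPM), Ccl9 (41.2 CPM), Ccl12 (4.67 CPM) and Cxcl16 (166 CPM), IgG replicate 4 was low for Cxcl14 (5.90 CPM) and IgG replicate 3 for Cxcl17 (4.31 CPM). IgG replicate 2 is also the library with the highest summed receptor RNA, 220.5 CPM.

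The labelled knockout and antibody effects differed in the 19 members given here, by a test of the difference itself (edgeR, adjusted over all genes). On the log2 scale, as knockout effect minus antibody effect, the ligand differences above 0 were 2.28 for Ccl21a, 1.98 for Ccl19, 1.83 for Cxcl3, 1.57 for Cxcl14, 1.49 for Ccl3, 1.31 for Ccl4, 1.16 for Ccl12, 1.04 for Ccl9, 0.93 for Ccl22, 0.87 for Ccl6 and 0.38 for Cx3cl1. The receptor differences were 1.12 for Cx3cr1, 1.01 for Ccr1, 0.97 for Cxcr3, 0.93 for Ccr2 and 0.54 for Cxcr2. Below 0 were Ccl28 at -2.21, Cxcl1 at -1.08 and Ccl20 at -1.07.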

How the results depend on the processing

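Counts of called members stayed within 1.5 times of those reported under every alternative run, except that leaving out each library in turn gave 2 to 4 members higher with the antibody, 4 without antibody replicate 4. Members lower with the antibody ranged from 19 to 28, lower in the labelled knockout from 10 to 15, higher in wild-type adenine over chow from 32 to 37, and with a higher knockout than antibody effect from 13 to 19. Upper-quartile scaling moved the median log2 change of all genes to 0.30 in wild type over chow, 0.19 in labelled knockout over chow, -0.19 with the antibody and 0.13 for the difference of effects, where it called 4504 genes higher and 2012 lower against 2788 and 3697 with TMM. It moved the share of higher calls among all genes from 54.1% to 40.8% in the knockout comparison, from 49.3% to 31.1% with the antibody and from 43% to 69.1% for the difference; the members' share moved by less than 10 points in each. Members that did not pass in a comparison and lie outside the named axes are not listed, Ccl25 and Ackr4 for the difference of effects among them. Among the members called in the comparison at hand and those of the named axes, directions turned only where the member had not passed. These were Ccl21a with the antibody (-0.11 upper quartile, -0.16 limma voom, -0.015 replicate block, -0.11 to 0.38 leaving out a library), Cxcl1 with the antibody (-0.23 to 0.041 leaving out a library), Cxcr6 in wild type over chow (-0.00027 to 0.32), and in labelled knockout over wild type Ccl4 (-0.010 upper quartile, -0.024 to 0.15), Ccr2 (-0.063 upper quartile, -0.00022 limma voom, -0.031 to 0.036) and Cxcl3 (-0.17 to 0.27). For the difference of effects they were Ackr3 (0.00284) and Ccl5 (0.026) with upper-quartile scaling. The causes were not tested. Same-numbered libraries did not deviate together (correlations from -0.19 to 0.10), which cannot show that the numbers pair no samples. With a replicate block 32 members were higher and 7 lower in wild type over chow, and 7 and 13 in labelled knockout over wild type. The counts were 31 and 6 in labelled knockout over chow, 2 and 23 with the antibody, and 15 and 3 for the difference. Own numbers correlated best for 2 libraries of wild type and chow and 0 of the other group pairs. Ackr4 lost its call in labelled knockout over chow in 11 of 18 alternatives. Groups of 4 limit the antibody comparison, and members near 1 CPM or below rest on few reads.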

Other observations

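Reads of a few ligands changed in their split over transcripts as well as in amount; these were chosen after their values were seen and carry no test. For Cxcl12, the minor transcript ENSMUST00000073043 held 9.68% to 15.4% of the gene's reads in labelled knockout libraries, 11.4% to 23.9% in wild type on adenine and 2.07% to 3.09% on chow, and 7.39% to 11.7% with the antibody against 10.7% to 11.3% with IgG. For Cxcl16, ENSMUST00000019064 held 57.3% to 62.5% of reads in labelled knockout libraries, 60.2% to 69.1% in wild type on adenine and 40.6% to 48.2% on chow, and 57.0% to 63.4% with the antibody against 54.2% to 60.6% with IgG. The shares on chow lay outside those of all adenine libraries for both genes. Division of reads between transcripts that overlap is an estimate of the authors' quantification, and fewer Cxcl12 reads stand behind the shares on adenine than on chow.

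Ccl25, the ligand of Ccr9, was higher in every adenine library of the knockout experiment than in any chow library. Its log2 change from chow was 0.75 ± 0.06 in wild type (SE, edgeR adjusted p = 2.03e-09). In labelled knockout libraries it was 0.70 ± 0.06 (edgeR adjusted p = 7.97e-09). Between labelled knockout and wild type Ccl25 did not pass (edgeR adjusted p = 0.467). It averaged 13.4 ± 0.28 CPM in labelled knockout libraries, 13.9 ± 0.88 CPM in wild type on adenine and 8.23 ± 0.60 CPM on chow (SD, n = 6, 6 and 4). It averaged 8.69 ± 1.5 CPM with the antibody and 7.99 ± 1.0 CPM with IgG (SD, n = 4 each). Ccl27a, whose near copies were not analysed here and whose values are therefore uncertain, averaged 19.4 ± 1.6 CPM in labelled knockout libraries, 22.1 ± 1.6 CPM in wild type on adenine and 20.1 ± 2.1 CPM on chow.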
